A study of Mus musculus with 16 samples.

Results

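The genes described here are the IL-4 and common gamma chain receptor genes of mouse bone marrow-derived macrophages (BMDMs): Il4ra, Il13ra1, Il2rg, Il2ra, Il15ra, Il7r and Il21r, with the ligand Il15, which is presented to other cells by the protein of Il15ra. They were chosen by name, by matching the gene identifiers of the count table to symbols, and make up 8 of the 55487 genes in the table. All 8 passed the filter on low counts (CPM, the count scaled to the size of the library, above 1 in at least 2 samples), as did 12372 genes in all. RNA was sequenced from 16 samples of BMDMs grown from 8-week-old wild-type Balb/c mice, which the study's methods give as female, and the macrophages were serum-starved before treatment. The controls were kept in DMEM (2 samples) or DMEM with the JAK1 and JAK2 inhibitor ruxolitinib (DMEM + Rux, 3 samples), for which the labels give no dose or time. Conditioned medium (CM) came from serum-starved 4T1 cells, a mouse mammary tumor line. It was given alone (CM, 3 samples), with 0.5 μM ruxolitinib and a label of 4 h (CM + Rux, 3 samples), with 0.5 μM ruxolitinib and a label of 2 h (CM + Rux 2 h, 2 samples), or with ruxolitinib at that dose plus the IκB kinase inhibitor IKK-16 at 0.8 μM (CM + Rux + IKK-16, 3 samples). Only CM + Rux and CM + Rux 2 h have a time in their labels, so DMEM, CM and CM + Rux + IKK-16 have no labelled time either. For RNA, the study's methods give 4 h of treatment with CM and ruxolitinib. By those methods ruxolitinib was already present in the serum-free pre-treatment before CM, whereas IKK-16 came together with CM. What the 2 h stands for is not given in the sources used here, and no CM sample without inhibitor carries that label. The labels do not say whether replicates came from separate cultures or animals, so p-values measure the spread between these samples.

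The receptors share parts. The protein of Il2rg, the common gamma chain, pairs with the IL-4 receptor alpha chain (Il4ra) to bind IL-4, with Il7r for IL-7, with Il21r for IL-21 and, together with the beta chain Il2rb, with Il2ra or Il15ra for IL-2 or IL-15. Il4ra also pairs with Il13ra1 in a receptor for both IL-4 and IL-13. The gamma chain carries JAK3, and the chains Il4ra, Il7r, Il21r and Il2rb carry JAK1. The signal runs through STAT6 for IL-4 and IL-13, mainly through STAT5 for IL-2, IL-7 and IL-15, and mainly through STAT3 for IL-21. In macrophages the IL-4 receptor is best known for the alternatively activated program.

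The counts of a sample summed to between 18449388 and 46215853. All 8 macrophage markers on the list (such as Adgre1, Csf1r and Lyz2) were expressed in every group, with a summed level of 34442 to 45708 CPM. Of 12 T and NK cell markers, 10 stayed below 1 CPM in every sample, and Cd3g, Cd8a, Trac, Ncr1, Gzma and Prf1 had no count in any sample. Cd4 and Lck exceeded 1 CPM, and the whole list summed to between 6.97 and 15.2 CPM over all samples. The 6 mast cell and basophil markers summed to at most 0.163 CPM. The dendritic cell list summed to 1.76 to 2.31 CPM in DMEM and 4.62 to 7.73 CPM in CM, with Ccr7 at 0.324 ± 0.169 CPM (SD, n = 2) and 3.59 ± 1.67 CPM (n = 3). The neutrophil list summed to 0.287 to 0.296 CPM in DMEM and 1.72 to 3.24 CPM in CM, with S100a8 at 0.247 ± 0.0563 and 1.9 ± 0.495 CPM and Ly6g and Retnlg at 0 throughout. Neither list overlapped between DMEM and CM, where 74.8% of all genes tested, taken singly, did not overlap either. The part of these lists in the results below was not tested. Epithelial markers, which 4T1 cells could carry, summed to at most 0.231 CPM in the DMEM groups and to between 0.977 and 1.5 CPM in CM, each of the 7 genes below 1 CPM. The summed B cell list was 80.2 to 144 CPM in DMEM, 10.6 to 14.2 CPM in CM, 12.2 to 15.5 CPM in CM + Rux and 55.7 to 71.4 CPM in CM + Rux 2 h, nearly all of it Ighm, with Pax5 at 0 throughout. In bulk RNA, fewer cells of a type and less RNA per cell cannot be told apart.

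The genes lie at the following places in the mouse genome GRCm38, as the count table gives them. Il2ra (chr2:11642807-11693193, plus strand) and Il15ra (chr2:11705290-11734317, plus strand) are neighbours with 12096 bases and no other annotated gene between them. Il4ra (chr7:125552120-125579474) and Il21r (chr7:125603429-125633570), both on the plus strand, are neighbours in the same way, 23954 bases apart. Il13ra1 (chrX:36112110-36171259, plus strand) and Il2rg (chrX:101264378-101268255, minus strand) are on the X chromosome. Il7r is at chr15:9505788-9530176 on the minus strand and Il15 at chr8:82331632-82403222 on the minus strand. Gm37881 and Gm20489 overlap Il2ra and Il2rg on the same strand.

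Promoter windows were searched because one of the inhibitors acts on JAKs, upstream of STATs, and the other on the kinase upstream of NF-κB. Windows of 300 bases (250 before to 50 after the RefSeq start, GRCm38.p6) were found for 7 of the 8 genes, 8 windows in all, since Il15ra has more than 1; Il15 had no entry. Each window was searched on both strands for the NF-κB consensus, which 8.46% of the 32851 mouse promoter windows hold, for the STAT motif TTCNNNGAA (8.3%), for the STAT6 motif, TTC and GAA with 4 bases between them (6.95%), and for the IRF motif, GAAA repeated after 2 bases (3.44%). The NF-κB consensus was matched in the windows of Il2ra and Il4ra and the STAT motif in that of Il7r, and no window held the STAT6 or IRF letters. The windows with a match, and only these, are shown 5′ to 3′ on the strand of the gene, with the matched bases in capitals. In Il2ra the capitals start at base 50 of the window and hold 3 overlapping matches on both strands, in Il4ra they start at base 271, after the RefSeq start, on the opposite strand, and in Il7r they start at base 109 and read as a match on either strand. The Il7r window lies within the gene as the count table places it, so its match is not upstream of the start given there. A match describes the letters only.
Il2ra promoter, chr2:11642542-11642841, plus strand: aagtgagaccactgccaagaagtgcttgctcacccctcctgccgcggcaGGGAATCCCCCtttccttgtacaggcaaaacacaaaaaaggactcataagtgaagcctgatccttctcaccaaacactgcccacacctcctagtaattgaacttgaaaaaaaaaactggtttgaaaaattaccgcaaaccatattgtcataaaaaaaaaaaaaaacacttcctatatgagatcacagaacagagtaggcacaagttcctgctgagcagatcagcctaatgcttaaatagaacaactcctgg
Il4ra promoter, chr7:125552021-125552320, plus strand: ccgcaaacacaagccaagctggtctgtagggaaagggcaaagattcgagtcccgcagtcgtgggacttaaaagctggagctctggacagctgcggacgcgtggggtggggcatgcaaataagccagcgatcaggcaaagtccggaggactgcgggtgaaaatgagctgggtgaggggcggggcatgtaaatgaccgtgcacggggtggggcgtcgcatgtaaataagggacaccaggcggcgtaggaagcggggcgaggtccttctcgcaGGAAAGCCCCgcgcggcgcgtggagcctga
Il7r promoter, chr15:9529827-9530126, minus strand: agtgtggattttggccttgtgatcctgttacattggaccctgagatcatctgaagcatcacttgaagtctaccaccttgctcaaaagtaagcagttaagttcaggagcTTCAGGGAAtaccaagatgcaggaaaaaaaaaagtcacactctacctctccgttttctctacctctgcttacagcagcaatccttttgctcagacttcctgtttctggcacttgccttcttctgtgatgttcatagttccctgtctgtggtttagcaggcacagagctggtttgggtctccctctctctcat

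Levels of different genes were set side by side per kilobase of exon. In DMEM the order was Il2rg (37.4 ± 4.77 CPM per kilobase, SD, n = 2), Il7r (26.2 ± 8.08), Il4ra (7.68 ± 1.38), Il15 (5.09 ± 0.325), Il13ra1 (4.68 ± 0.58), Il21r (2.96 ± 0.289), Il15ra (0.869 ± 0.031) and Il2ra (0.0107 ± 0.0152). The common gamma chain and the IL-7 receptor alpha chain were thus the most abundant of these 8 transcripts in DMEM, and Il2ra was at the edge of detection. In CM the top place went to Il4ra (160.6 ± 37.4 CPM per kilobase, n = 3), above Il2rg (57 ± 1.34) and Il7r (49.4 ± 8.07), the last pair being within each other's spread. In CM + Rux + IKK-16 the top place went to Il7r (80.1 ± 5.6), above Il2rg (49.4 ± 2.38) and Il4ra (47.2 ± 13.3). Il15ra and Il2ra were the lowest of the 8 in every group.

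**Figure D1:**
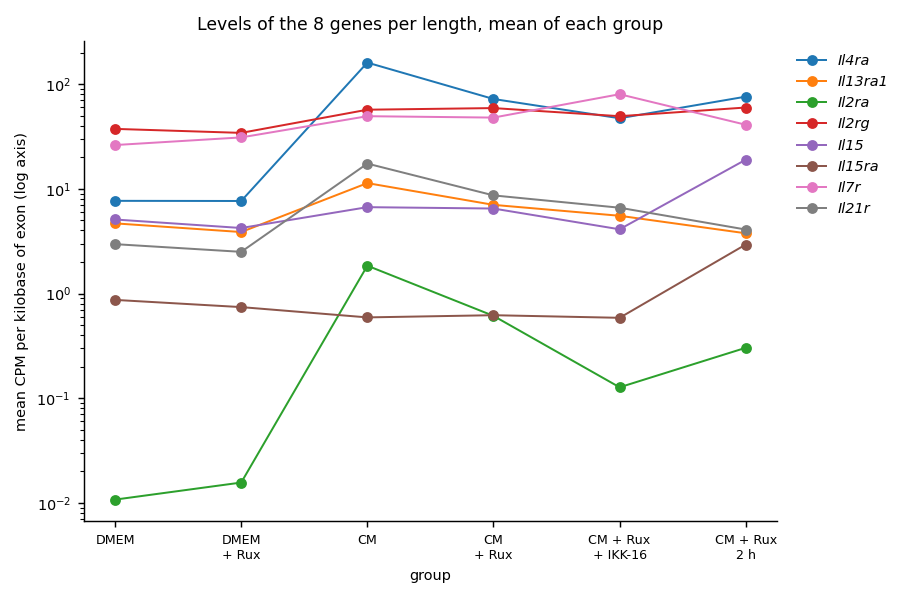
Mean level of each of the 8 genes in each group, in CPM per kilobase of exon on a log axis, with lines that only join the points of a gene. Il4ra passed from below Il2rg and Il7r in DMEM (7.68) to the top in CM (160.6), and Il2ra from 0.0107 in DMEM to 1.84 in CM.

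The first comparison asks what tumor-derived factors do to these receptors. With CM, 6 of the 8 genes were called higher than in DMEM (edgeR quasi-likelihood test, Benjamini-Hochberg adjusted p under 0.05 and log2 fold change beyond 0.5) and 0 lower, where 20.9% of all genes tested were called higher and 24.1% lower. The median log2 fold change was 1.1 over the 8 genes and -0.00 over all genes. The split of calls over all genes depends on the scaling: 46.4% of them were higher with the scaling used here and 25.0% with scaling by total counts, which moves the median of all genes by 0.31 on the log2 scale. The samples of CM and DMEM did not overlap for any of the 8 genes, as for 74.8% of all genes.

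Il4ra encodes the chain common to both IL-4 receptors. It stood at 40.2 and 51.9 CPM in DMEM and at 871, 1220 and 800 CPM in CM. Every CM sample was far above every DMEM sample, and replicate 2 was the highest in CM. On the log2 scale the fitted change was 4.39 (SE 0.34, adjusted p = 1.55e-07), or 20.9-fold. Il13ra1, its partner in the receptor for IL-13, went from 18.9 and 15.8 CPM to 42.2, 42.6 and 41.4 CPM, a narrow band in CM (log2 fold change 1.27, SE 0.18, adjusted p = 4.1e-05).

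Il2ra, the IL-2 receptor alpha chain that marks activated T cells, was close to absent in DMEM, with 0 and 3 counts in the DMEM samples. In CM it had 182, 308 and 302 counts, which is 10.1, 9.15 and 12.3 CPM. All 3 CM samples were thus far above the level of 3 counts, at most 0.167 CPM in a CM sample. The ratio of pooled counts, CM to DMEM, was 202 with a 95% exact interval of 68.8 to 981, which covers counting error only, and the adjusted p of the edgeR test was 3.46e-07. The fitted fold moved by over 1.5 times without DMEM replicate 1 (log2 fold change 6.37, adjusted p = 1.32e-05) or DMEM replicate 2 (11.35, adjusted p = 5.84e-06) and is not given as a size. Its beta chain partner Il2rb had at most 3 counts in any sample, and the T and NK cell list, at 7.84 to 11.9 CPM in CM and 9.13 to 9.28 CPM in DMEM, overlapped between these groups. Within that list Lck was at 0.778 to 1.3 CPM in DMEM and 3 to 3.75 CPM in CM. It was at 1.65 to 2.7 CPM in CM + Rux and 1.5 to 2.53 CPM in CM + Rux + IKK-16. These inhibitor groups overlapped for Lck but not for Il2ra. Cd4, the most abundant, was at 7.83 to 8.1 CPM in DMEM and 4.81 to 7.98 CPM in CM. Cd3g, Cd8a and Trac had no count in any sample, and the part of such cells in the Il2ra result was not tested.

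The common gamma chain Il2rg moved less. Its levels were 97.2 and 81.1 CPM in DMEM and 137, 138 and 132 CPM in CM, with no overlap. The log2 fold change of 0.61 (SE 0.08, adjusted p = 2.6e-05) was just past the limit of 0.5. It fell short of that limit at 0.48 without DMEM replicate 2 and at 0.30 with scaling by total counts.

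Il21r, the IL-21 receptor chain next to Il4ra in the genome, had 9.16 and 10.5 CPM in DMEM and 37, 99.7 and 37 CPM in CM. Replicate 2 of CM was well above the other CM samples, which were themselves above DMEM. The log2 fold change was 2.57 (SE 0.64, adjusted p = 0.00306), and 1.91 without CM replicate 2 (adjusted p = 0.0127). Il7r, the IL-7 receptor alpha chain, had 95.4 and 149 CPM in DMEM and 211, 274 and 207 CPM in CM. Its log2 fold change was 0.92 (SE 0.23, adjusted p = 0.00285), and the call was lost without DMEM replicate 1 (0.63, adjusted p = 0.0537).

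The IL-15 pair did not follow the other genes. Il15 had 11 and 12 CPM in DMEM and 19.2, 14.1 and 12.1 CPM in CM (log2 fold change 0.39, SE 0.20, adjusted p = 0.105). Il15ra had 3.96 and 3.77 CPM in DMEM and 3.12, 3.06 and 1.71 CPM in CM (log2 fold change -0.56, SE 0.24, adjusted p = 0.0603). Neither was called, and each call hung on single libraries: Il15 was called higher without CM replicate 3 (0.52, adjusted p = 0.0362), and Il15ra lower without CM replicate 1 (-0.67, adjusted p = 0.0444) or replicate 2 (-0.71, adjusted p = 0.0426). Il15ra was also called lower with scaling by total counts (-0.88).

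**Figure D2:**
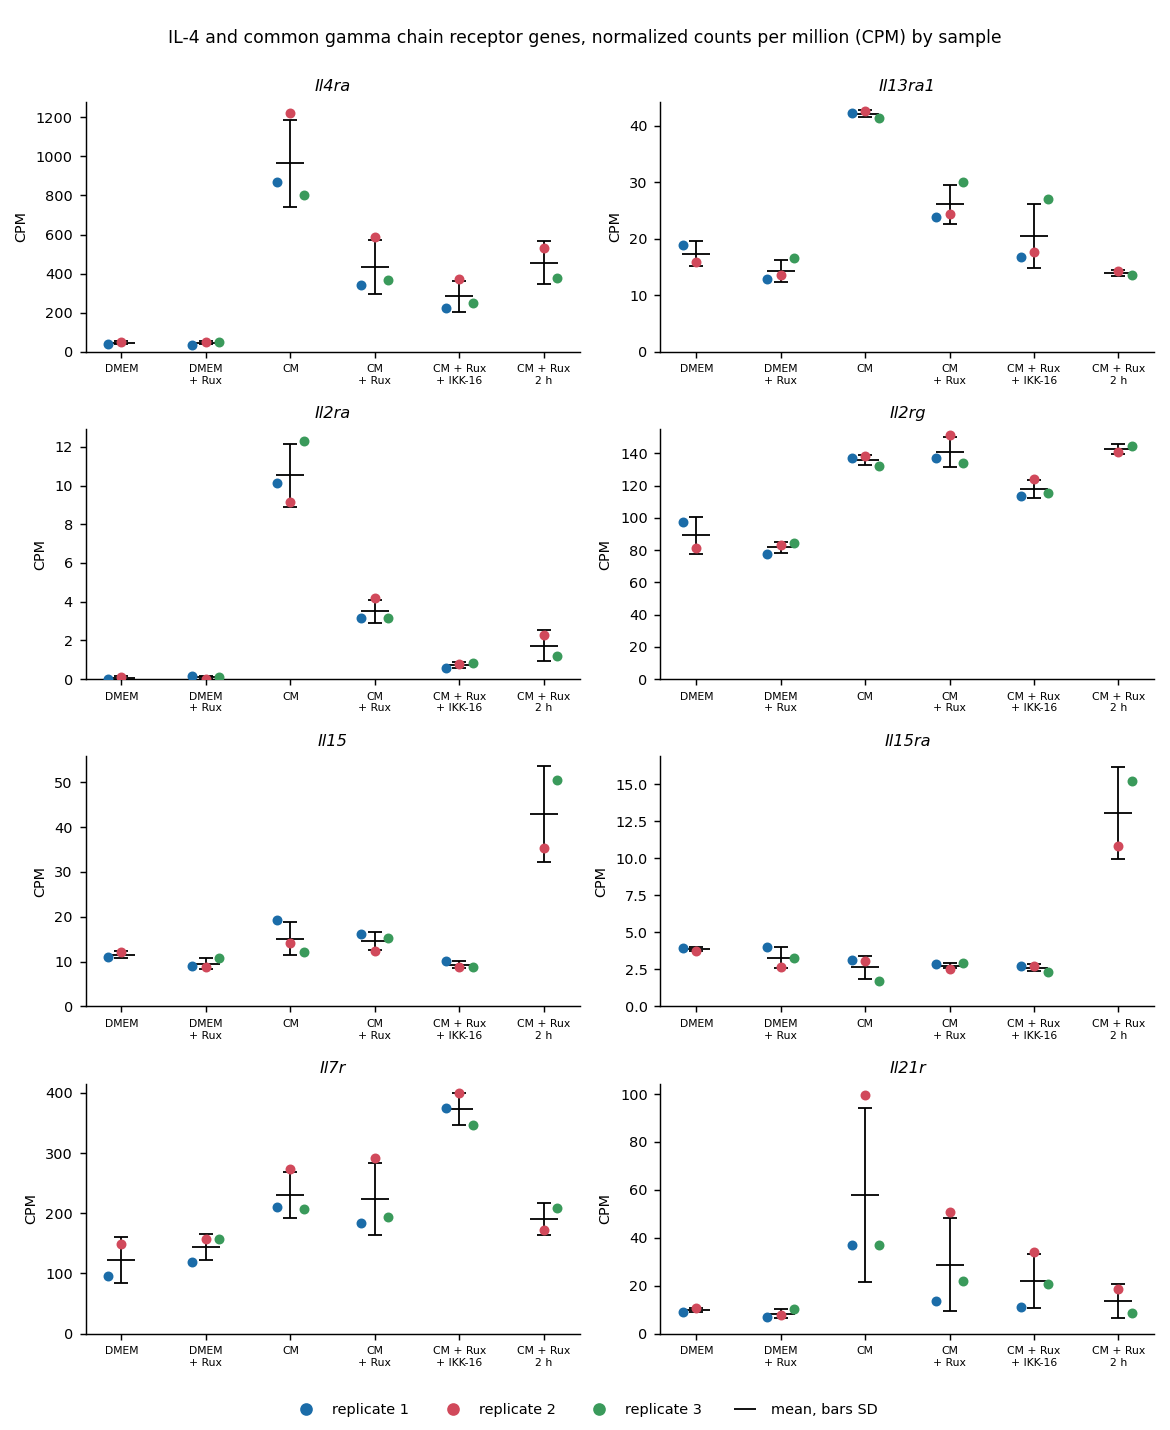
CPM of each of the 8 genes in each of the 16 samples, by group, with points for samples coloured by replicate number, dashes for the group mean and bars for the SD. Il4ra, Il13ra1, Il2ra and Il21r peaked in CM, Il7r in CM + Rux + IKK-16 (347 to 399 CPM), and Il15 and Il15ra in CM + Rux 2 h.

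The next comparison asks which of these genes depended on JAK signaling in CM. With ruxolitinib, 3 of the 8 genes were called lower than in CM alone (Il4ra, Il13ra1 and Il2ra) and 0 higher, where 2.13% of all genes tested were called lower and 1.2% higher. The same 3 genes were those whose samples did not overlap between the groups, as for 19.2% of all genes. The median log2 fold change was -0.37 over the 8 genes and 0.01 over all genes.

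Il4ra stood at 341, 590 and 367 CPM in CM + Rux, below the lowest CM sample (800 CPM) and above the DMEM samples. Its log2 fold change was -1.16 (SE 0.25, adjusted p = 0.0162). Il13ra1 was at 23.8, 24.4 and 30 CPM, between DMEM and CM (log2 fold change -0.69, SE 0.16, adjusted p = 0.0207). Il2ra was at 3.16, 4.17 and 3.16 CPM, or 117, 172 and 62 counts (log2 fold change -1.58, SE 0.31, adjusted p = 0.00866), and every such sample was below every CM sample. These calls lay near the threshold. The Il4ra call was lost without CM replicate 2 (-0.95, adjusted p = 0.0822), CM + Rux replicate 1 (-1.01, adjusted p = 0.0945) or CM + Rux replicate 3 (-1.05, adjusted p = 0.0811). The Il13ra1 call was lost without CM replicate 1 (-0.69, adjusted p = 0.0589), CM replicate 2 (-0.69, adjusted p = 0.072), CM + Rux replicate 1 (-0.63, adjusted p = 0.11) or CM + Rux replicate 2 (-0.65, adjusted p = 0.0632). The Il2ra call was lost without CM + Rux replicate 1 (-1.50, adjusted p = 0.0571).

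Il21r had 13.8, 50.7 and 21.8 CPM in CM + Rux, a range that overlapped CM (log2 fold change -1.01, SE 0.51, adjusted p = 0.381). Within each shared replicate number the level was lower with ruxolitinib, at 0.373, 0.509 and 0.589 of the CM level for replicates 1, 2 and 3. With the replicate number as a block the log2 fold change was -1.04 (SE 0.29, adjusted p = 0.0328) and the gene was called. Replicate 2 was the highest of the numbers for Il21r in each of the 3 CM groups that hold all the numbers, at 2.69, 2.85 and 2.14 times the mean of replicates 1 and 3 in CM, CM + Rux and CM + Rux + IKK-16. In DMEM + Rux the same ratio was 0.891. For Il4ra these ratios were 1.46, 1.67 and 1.58 in the CM groups and 1.12 in DMEM + Rux.

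**Figure D3:**
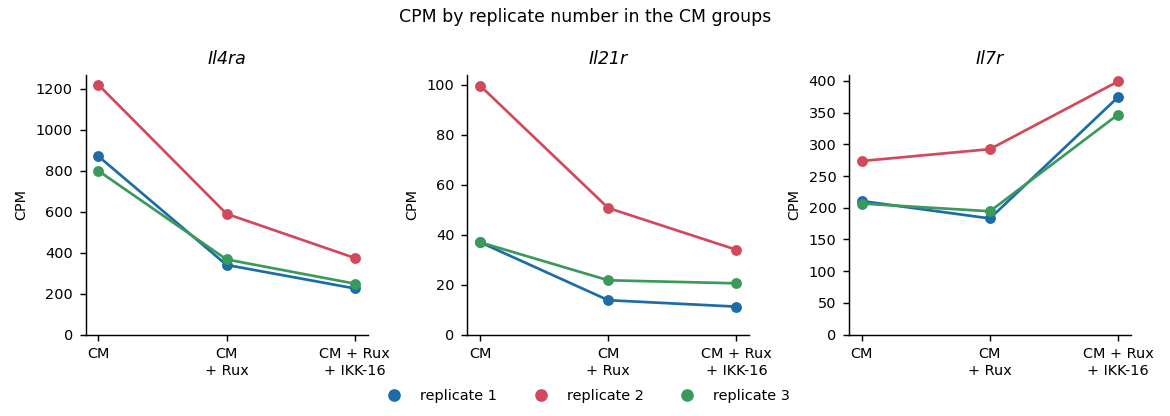
CPM of Il4ra, Il21r and Il7r in CM, CM + Rux and CM + Rux + IKK-16, with a line for each replicate number. Replicate 2 was the highest for each gene in each of these groups, and the 3 lines of Il4ra and of Il21r all ran lower in CM + Rux, at 0.373 to 0.589 of the CM level.

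The gamma chain, Il7r and the IL-15 pair showed little difference between CM + Rux and CM. Il2rg had 137, 151 and 134 CPM (log2 fold change 0.05, SE 0.07), Il7r 183, 292 and 194 CPM (-0.04, SE 0.20), Il15 16.2, 12.4 and 15.3 CPM (-0.04, SE 0.17) and Il15ra 2.83, 2.54 and 2.9 CPM (0.07, SE 0.22). For all 4 genes the samples of the groups overlapped. The adjusted p was between 0.859 and 0.97, which does not show that the levels were equal.

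In DMEM, ruxolitinib left 0 of the 8 genes called in either direction by edgeR or DESeq2, and 0 of them had an unadjusted p under 0.05. Of all genes tested 0.0% were called higher and 0.97% (120 genes) lower. By unadjusted p under 0.05 and the same limit on size, 50 genes over the whole table were higher and 246 lower, and DESeq2 called 0 higher and 147 lower. Il4ra had 36.5, 49.5 and 51.7 CPM in DMEM + Rux, against 40.2 and 51.9 CPM in DMEM. For the other genes, Il2ra aside, the log2 fold changes lay between -0.28 (Il13ra1, SE 0.18) and 0.24 (Il7r, SE 0.22), with adjusted p of 1 throughout. Il2ra had 3, 0 and 4 counts in DMEM + Rux, and the ratio of pooled counts to DMEM was 1.4 with a 95% exact interval of 0.319 to 8.37. The samples of the groups did not overlap for Il15 alone, at 9.05, 8.71 and 10.9 CPM against 11 and 12 CPM, where 18.5% of all genes did not overlap.

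An interaction test, of whether ruxolitinib acted differently with CM than without it, called 0 of the 8 genes with edgeR or DESeq2, where edgeR called 0.234% of all genes tested higher and 0.178% lower. By an unadjusted p under 0.05 it was 1 of the 8, Il4ra. By that p and the same limit on size, 433 genes over the whole table were higher and 309 lower. For Il4ra the difference was -1.15 on the log2 scale (SE 0.38, adjusted p = 0.26). With the replicate number as a block it was -1.23 (SE 0.18, adjusted p = 0.00241) and was called. The DMEM side of this test has only 2 same-numbered pairs, too few for the block to count as pairing there. Adjusted p for the other genes, Il2ra aside, ranged from 0.71 to 0.95.

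The next comparison asks what NF-κB pathway inhibition adds on top of ruxolitinib. With IKK-16 added, 2 of the 8 genes (Il2ra and Il15) were called lower than in CM + Rux and 1 (Il7r) higher, where 3.66% of all genes tested were called lower and 4.07% higher. Over all genes 52.7% of the calls were higher, and 67.5% with scaling by total counts. The samples of the groups did not overlap for 4 of the 8 genes, as for 31.5% of all genes.

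Il2ra came down to 0.567, 0.795 and 0.816 CPM, or 22, 26 and 28 counts. This was below every CM + Rux sample, with a log2 fold change of -2.28 (SE 0.36, adjusted p = 0.00125), or 4.84-fold lower. The call held without any single library, with adjusted p of at most 0.00956. Against CM alone the log2 fold change was -3.86 (SE 0.36, adjusted p = 1.2e-05). It still exceeded DMEM, with a ratio of pooled counts of 13.9 and a 95% exact interval of 4.6 to 69.1.

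Il7r went the other way, to 374, 399 and 347 CPM, above the highest CM + Rux sample (292 CPM) and above every CM sample. The log2 fold change against CM + Rux was 0.74 (SE 0.20, adjusted p = 0.021), and 0.70 against CM (SE 0.20, adjusted p = 0.0202). Within each replicate number Il7r rose to 2.04, 1.37 and 1.78 times its CM + Rux level. The call against CM + Rux was lost without CM + Rux replicate 1 (0.61, adjusted p = 0.086), CM + Rux replicate 3 (0.65, adjusted p = 0.0804), CM + Rux + IKK-16 replicate 1 (0.74, adjusted p = 0.061) or CM + Rux + IKK-16 replicate 2 (0.69, adjusted p = 0.0558). Against CM it was lost without CM replicate 1 (0.63, adjusted p = 0.0712), CM replicate 3 (0.62, adjusted p = 0.0712), CM + Rux + IKK-16 replicate 1 (0.69, adjusted p = 0.056) or CM + Rux + IKK-16 replicate 2 (0.65, adjusted p = 0.0513).

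Il15 fell to 10.2, 8.78 and 8.86 CPM, below every CM + Rux sample and near the DMEM samples. The log2 fold change was -0.66 (SE 0.17, adjusted p = 0.0221). The call was lost without CM + Rux replicate 1 (-0.57, adjusted p = 0.0816), CM + Rux replicate 3 (-0.63, adjusted p = 0.0606), CM + Rux + IKK-16 replicate 2 (-0.62, adjusted p = 0.0614) or CM + Rux + IKK-16 replicate 3 (-0.62, adjusted p = 0.073), and with scaling by total counts (-0.57). Il15ra, at 2.73, 2.75 and 2.33 CPM, was at -0.08 (SE 0.22, adjusted p = 0.859).

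Il4ra had 226, 375 and 249 CPM, which overlapped CM + Rux (log2 fold change -0.61, SE 0.25, adjusted p = 0.12). Within replicate numbers the ratios were 0.663, 0.635 and 0.678, closer to each other than the samples of either group. With the replicate number as a block the log2 fold change was -0.61 (SE 0.12, adjusted p = 0.00196) and was called, as it was without CM + Rux + IKK-16 replicate 2 (-0.87, adjusted p = 0.0423). Il13ra1 (16.9, 17.7 and 27 CPM) was at -0.34 (SE 0.16, adjusted p = 0.171), and was called lower without CM + Rux + IKK-16 replicate 3 (-0.59, adjusted p = 0.0119). Il2rg, at 114, 124 and 116 CPM, was at -0.26 (SE 0.07, adjusted p = 0.0296), under the limit on size. Il21r, at 11.2, 34 and 20.6 CPM, was at -0.40 (SE 0.51, adjusted p = 0.655).

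Set against CM, the combination of both inhibitors called 4 of the 8 genes lower (Il4ra, Il13ra1, Il2ra and Il15) and 1 higher (Il7r), where 6.13% of all genes were called lower and 6.6% higher. The samples did not overlap for 7 of the 8, as for 37.9% of all genes. The split over all genes was 51.9% higher, and 68.1% with scaling by total counts. Il4ra was at -1.77 (SE 0.26, adjusted p = 0.00029) and Il13ra1 at -1.04 (SE 0.16, adjusted p = 0.000434). Il15 was at -0.69 (SE 0.18, adjusted p = 0.0122), and lost its call without CM replicate 1 (-0.50, adjusted p = 0.0546). Il21r was at -1.41 (SE 0.51, adjusted p = 0.062). It was called with the replicate number as a block (-1.38, SE 0.29, adjusted p = 0.00257) and without CM + Rux + IKK-16 replicate 2 (-1.88, adjusted p = 0.0322).

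**Figure D4:**
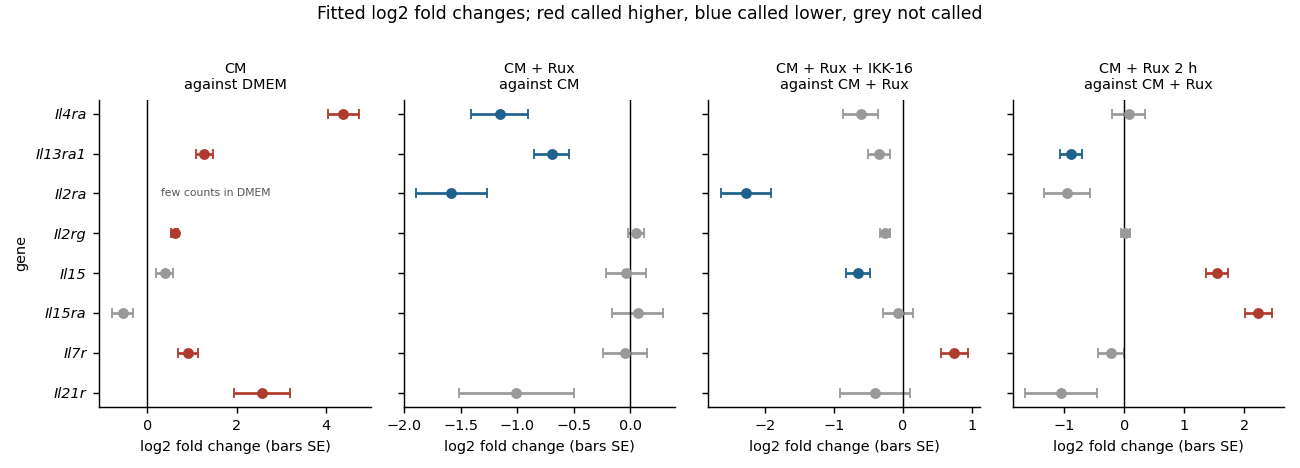
Fitted log2 fold changes of the 8 genes with their SE as bars in 4 comparisons, red where called higher, blue where called lower and grey where not called. Il2ra fell in CM + Rux (-1.58) and again with IKK-16 (-2.28), while Il7r rose with IKK-16 (0.74); the Il2ra value against DMEM is left out because DMEM holds 3 counts.

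The groups given ruxolitinib can also be set against DMEM, which shares its samples with the comparison of CM and DMEM. In CM + Rux 6 of the 8 genes were called higher, the 6 that were called in CM, where 20.4% of all genes were called higher and 23.2% lower, and the samples did not overlap for all 8, as for 74.3% of all genes. In CM + Rux + IKK-16 it was 3 (Il4ra, Il2ra and Il7r), where 16.1% were called higher and 17.2% lower, and the samples did not overlap for 7 of the 8, as for 68.7% of all genes. The share of calls that were higher was 46.8% and 48.4%, and 26.0% and 30.0% with scaling by total counts, which moves the median of all genes by 0.29 and 0.20. Il4ra remained above DMEM by 3.23 (SE 0.32, adjusted p = 1.46e-06) in CM + Rux and by 2.62 (SE 0.31, adjusted p = 1.28e-05) in CM + Rux + IKK-16, on the log2 scale. For Il2ra in CM + Rux the ratio of pooled counts to DMEM was 69.6, with a 95% exact interval of 23.6 to 339. In CM + Rux, Il13ra1 was at 0.58 (adjusted p = 0.013) and fell under the limit without CM + Rux replicate 3 (0.47, adjusted p = 0.0467) or DMEM replicate 2 (0.46, adjusted p = 0.118). Il7r was at 0.87 (adjusted p = 0.00398) and lost its call without DMEM replicate 1 (0.58, adjusted p = 0.0708). Il21r was at 1.56 (adjusted p = 0.041) and lost it without CM + Rux replicate 2 (0.84, adjusted p = 0.222), DMEM replicate 1 (1.46, adjusted p = 0.163) or DMEM replicate 2 (1.66, adjusted p = 0.122). Il7r was at 1.61 (SE 0.23, adjusted p = 6.41e-05) with IKK-16, and Il2rg, at 0.40 (adjusted p = 0.00118), passed the limit on size without DMEM replicate 1 (0.54, adjusted p = 0.000493). Scaling by total counts ended the calls of Il13ra1 (0.29), Il2rg (0.37) and Il21r (1.25) in CM + Rux, and called Il15ra lower than DMEM in CM + Rux (-0.78) and in CM + Rux + IKK-16 (-0.77).

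The 2 h samples differed from the 4 h samples of CM + Rux mainly in the IL-15 pair. Of the 8 genes 2 were called higher at 2 h (Il15 and Il15ra) and 1 lower (Il13ra1), where 12.6% of all genes tested were called higher and 10.7% lower, and the samples did not overlap for 4 of the 8, as for 59.6% of all genes. Il15 had 35.4 and 50.4 CPM at 2 h, against 12.4 to 16.2 CPM at 4 h, and no sample of any other group exceeded 19.2 CPM. The log2 fold change was 1.55 (SE 0.19, adjusted p = 3.49e-05). Il15ra had 10.9 and 15.3 CPM at 2 h, against 2.54 to 2.9 CPM at 4 h and at most 4.02 CPM in any other group (log2 fold change 2.24, SE 0.23, adjusted p = 8.76e-06). Both genes were called without any single library. Dendritic cell markers, on a list of 7 of which 5 stayed below 1 CPM in every sample, summed to 13.9 to 17.3 CPM at 2 h and 7.28 to 11.1 CPM at 4 h. Within that list Zbtb46 was at 10.1 ± 3.05 CPM (n = 2) at 2 h and 1.9 ± 0.166 CPM (n = 3) at 4 h, whereas Ccr7 was at 4.78 ± 0.392 CPM at 2 h and 6.6 ± 1.97 CPM at 4 h. The B cell list was also higher at 2 h (55.7 to 71.4 CPM) than at 4 h (12.2 to 15.5 CPM), and the part of these cells in the result was not tested.

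Il13ra1 was at 14.3 and 13.6 CPM at 2 h, within the range of DMEM + Rux, and below the 4 h samples (log2 fold change -0.89, SE 0.19, adjusted p = 0.00194). Il2ra had 2.29 and 1.17 CPM (83 and 20 counts), below every 4 h sample, with a log2 fold change of -0.95 (SE 0.39, adjusted p = 0.065), and was called without replicate 2 of the 2 h group (-1.59, adjusted p = 0.0474). Its ratio of pooled counts to DMEM was 37.5, with a 95% exact interval of 12.5 to 185. Il4ra (533 and 378 CPM, log2 fold change 0.07, SE 0.28), Il2rg (141 and 145 CPM, 0.02, SE 0.08) and Il7r (172 and 209 CPM, -0.23, SE 0.22) overlapped the 4 h samples. Il21r had 18.6 and 8.59 CPM (-1.06, SE 0.60, adjusted p = 0.181).

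Over all 6 groups the neighbours on chromosome 2 had different orders of level. Il2ra ran from CM (10.5 ± 1.61 CPM, n = 3) to CM + Rux (3.49 ± 0.583), CM + Rux 2 h (1.73 ± 0.795) and CM + Rux + IKK-16 (0.726 ± 0.138), none of which overlapped the next. The DMEM groups, lower still, overlapped each other. Il15ra was highest in CM + Rux 2 h (13.1 ± 3.11, n = 2), and its samples in DMEM, DMEM + Rux, CM + Rux, CM and CM + Rux + IKK-16 overlapped from each group to the next. The neighbours on chromosome 7 both peaked in CM. Il4ra there (964 ± 225) was above CM + Rux 2 h (456 ± 109) without overlap, whereas CM + Rux 2 h, CM + Rux (433 ± 137) and CM + Rux + IKK-16 (283 ± 80) overlapped in turn, and all were above the DMEM groups. For Il21r every group overlapped the next in the order CM (57.9 ± 36.2), CM + Rux (28.8 ± 19.4), CM + Rux + IKK-16 (21.9 ± 11.4), CM + Rux 2 h (13.6 ± 7.05), DMEM (9.84 ± 0.959) and DMEM + Rux (8.31 ± 1.91).

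Il13ra1 separated CM (42.1 ± 0.605) from CM + Rux (26.1 ± 3.43), and below that each group overlapped the next. Il2rg was alike in CM + Rux 2 h (143 ± 2.94), CM + Rux (141 ± 9.2) and CM (136 ± 3.21), lower in CM + Rux + IKK-16 (118 ± 5.69) and lower again in DMEM (89.2 ± 11.4), with overlap only within the CM, CM + Rux and 2 h groups and between the DMEM groups. Il7r separated CM + Rux + IKK-16 (373 ± 26.1) from CM (230 ± 37.6), and the 2 h group (191 ± 26.2) from DMEM + Rux (144 ± 21.7). Il15 separated the 2 h group (42.9 ± 10.6) from CM (15.1 ± 3.68). It also separated CM + Rux (14.7 ± 1.98) from DMEM (11.5 ± 0.734), and DMEM from DMEM + Rux (9.55 ± 1.17).

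Il15, described above, was at 8.71 to 50.4 CPM over all samples. The other ligands of these receptors were hardly seen in the macrophages themselves. Of the list Il2, Il4, Il7, Il9, Il13, Il21 and Tslp, 0 of 7 passed the filter. Il4, Il9 and Il21 had no count in any of the 16 samples, which allows at most 3 counts per sample, or up to 0.175 CPM in the sample with the highest such limit; Il13 had 1 count in all and Il2 at most 2 counts in a sample. Il7 reached 0.969 CPM and Tslp 0.872 CPM. Of the other receptor chains, Il2rb, the beta chain that IL-2 and IL-15 signaling needs, had at most 3 counts in a sample, Il9r at most 1 and the IL-13 decoy receptor Il13ra2 at most 6. Crlf2, which pairs with Il7r in the receptor for TSLP, was at 24.7 to 38 CPM and was called in 0 of 9 comparisons.

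Of 15 genes for transducers and brakes of these receptors, 8 were called higher and 1 lower with CM than in DMEM. Of all genes tested 20.9% were called higher and 24.1% lower. The median log2 fold change was 0.64 over the 15 genes and -0.00 over all genes. Jak3, the kinase on the gamma chain, rose from 28.3 and 25.2 CPM to 62.3, 59.1 and 68.1 CPM (log2 fold change 1.24, SE 0.13, adjusted p = 2.67e-06). It fell again with ruxolitinib to 35.1, 38.3 and 42.6 CPM (-0.71, SE 0.11, adjusted p = 0.00216). The interaction test for Jak3 gave -0.69 (SE 0.17, adjusted p = 0.107), and with the replicate number as a block -0.60 (SE 0.11, adjusted p = 0.00907), which was called. Here too the DMEM side has only 2 same-numbered pairs. Jak1 went from 275 ± 8.38 CPM (n = 2) to 445 ± 33.2 CPM (n = 3), at 0.69 (SE 0.09, adjusted p = 1.68e-05) and at 0.39, below the limit, with scaling by total counts. Stat5a was called higher in CM (1.99, SE 0.12, adjusted p = 2.08e-08), was at -0.01 (SE 0.10) with ruxolitinib, and fell with IKK-16 from 136, 110 and 110 CPM to 45.9, 45.8 and 51.7 CPM (-1.31, SE 0.10, adjusted p = 9.53e-06). In the 2 h samples Stat5a was higher than at 4 h (1.22, SE 0.11, adjusted p = 2.77e-06), and so was Stat5b (0.53, SE 0.09, adjusted p = 0.000411), which fell under the limit on size without CM + Rux replicate 3 (0.46) and with scaling by total counts (0.46). Stat6, the transducer of IL-4, was called in 0 of 9 comparisons, with 354 to 494 CPM over all samples. It was higher at 2 h than at 4 h without overlap, but under the limit on size (0.42, SE 0.06, adjusted p = 0.00011). Tyk2 and Grb2 were also called in none of the 9 comparisons.

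The largest rise on that list in CM was that of Cish, a feedback inhibitor of cytokine receptors that STAT5 induces, from 0.148 and 0.123 CPM in DMEM to 136, 147 and 122 CPM (adjusted p = 4.99e-09). The only fall was that of Pias3, an inhibitor of STAT3, from 30.2 ± 1.82 to 17.4 ± 2.08 CPM (-0.80, SE 0.10, adjusted p = 1.17e-05). With ruxolitinib 2 of the 15 were called lower and 0 higher in CM, where 2.13% of all genes were called lower and 1.2% higher. These were Jak3 and Cish, the latter with the largest fall (-1.05, SE 0.23, adjusted p = 0.018). The Cish call was lost without CM replicate 1 (-1.05, adjusted p = 0.0521) or 2 (-0.99, adjusted p = 0.0728) or CM + Rux replicate 1 (-0.97, adjusted p = 0.0982) or 3 (-0.89, adjusted p = 0.0858). With IKK-16 on top 4 were called lower and 0 higher, where 3.66% of all genes were called lower and 4.07% higher. The largest fall was that of Socs1, a brake on JAKs, at 4.38, 5.41 and 5.68 CPM against 14.6, 16.5 and 14.4 CPM (-1.56, SE 0.12, adjusted p = 9.53e-06). Against CM the combination called 6 lower and 0 higher, where 6.13% of all genes were called lower and 6.6% higher. The largest fall was in Cish (-1.89, SE 0.24, adjusted p = 0.000117). Set against DMEM, CM + Rux had 7 higher and 1 lower, where 20.4% of all genes were called higher and 23.2% lower. CM + Rux + IKK-16 had 6 higher and 2 lower, where 16.1% of all genes were called higher and 17.2% lower. In CM + Rux + IKK-16 Ptpn6, the phosphatase SHP-1, fell furthest (-0.75, SE 0.09, adjusted p = 2.01e-05). The 2 h samples had 4 higher and 3 lower than the 4 h samples, where 12.6% of all genes were called higher and 10.7% lower. Socs1 fell furthest (-1.80, SE 0.15, adjusted p = 1.23e-06).

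**Figure D5:**
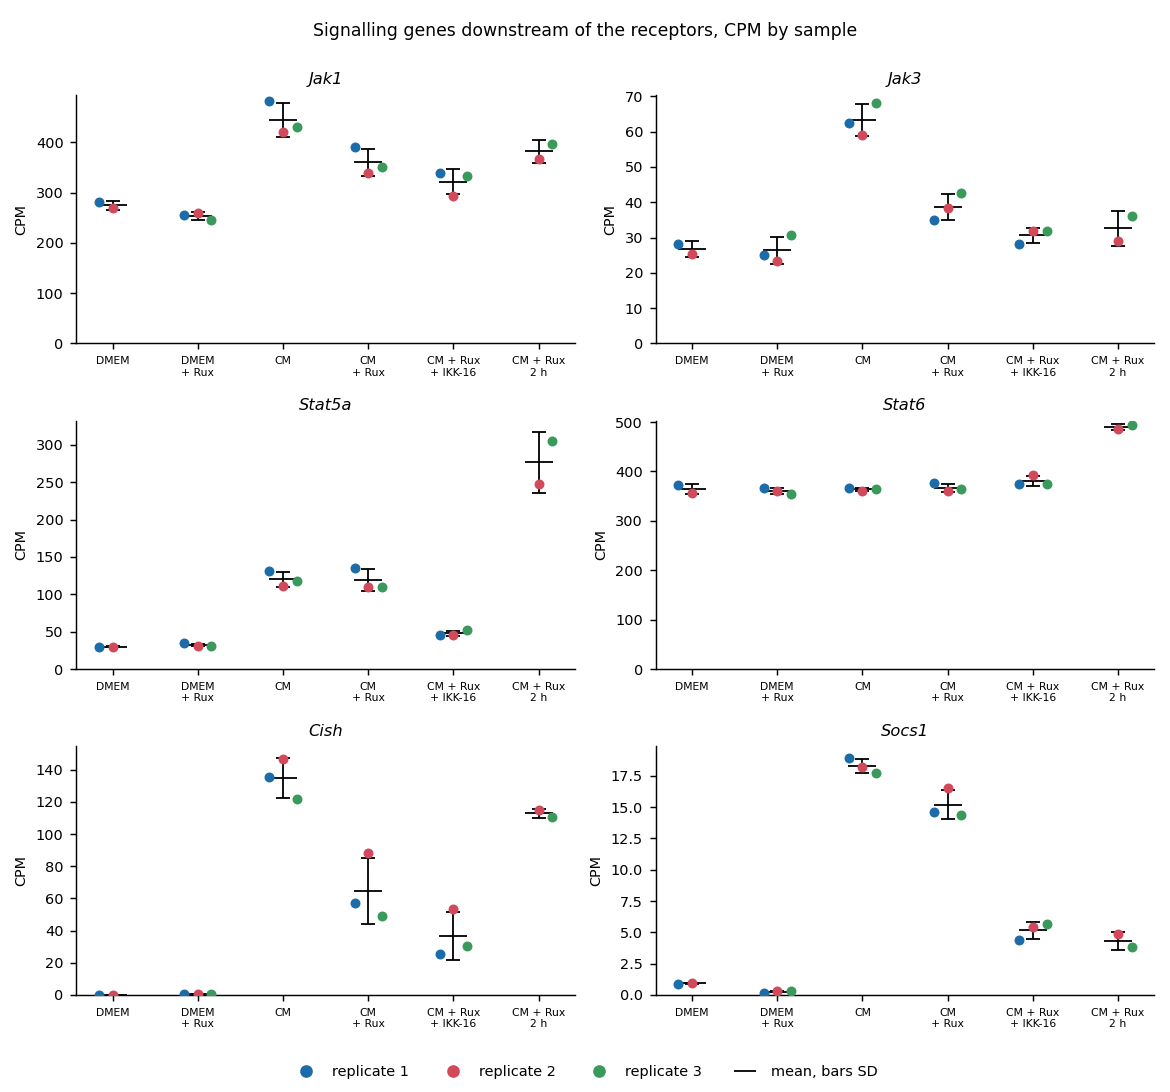
CPM of Jak1, Jak3, Stat5a, Stat6, Cish and Socs1 in each sample, with points coloured by replicate number, dashes for the group mean and bars for the SD. Stat6 varied between 354 and 494 CPM and, like Stat5a, was highest in CM + Rux 2 h, while Jak3 peaked in CM.

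Of 23 genes that IL-4 is known to induce in macrophages, 16 passed the filter. With CM, 10 of them were called higher and 3 lower than in DMEM, where 20.9% of all genes were called higher and 24.1% lower. The median log2 fold change was 1.14, against -0.00 for all genes. The classic markers Chil3 and Retnla had at most 1 and 4 counts in a sample. Arg1, the enzyme arginase-1, went from at most 1 count in DMEM to 17.1, 54.1 and 22.2 CPM in CM (adjusted p = 0.000165), with replicate 2 the highest. Pparg, a nuclear receptor of lipid metabolism, fell from 25.7 and 46.5 CPM to 1.5, 1.75 and 2.04 CPM (-4.34, SE 0.28, adjusted p = 3.44e-08). With ruxolitinib 3 were called lower and 0 higher than in CM, where 2.13% of all genes were called lower and 1.2% higher. The largest fall was that of Pdcd1lg2, which encodes PD-L2, from 1.72 ± 0.339 to 0.262 ± 0.0697 CPM (-2.64, SE 0.32, adjusted p = 0.000267).

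With IKK-16 on top, 1 was called higher, Ppargc1b (1.79, SE 0.40, adjusted p = 0.00952), and 2 lower, with the largest fall in the chemokine Ccl24 (-1.44, SE 0.34, adjusted p = 0.0113). Here 4.07% of all genes were called higher and 3.66% lower. Against CM the combination called 1 higher (Ppargc1b, 1.61, SE 0.40, adjusted p = 0.0117) and 8 lower. Of all genes 6.6% were called higher and 6.13% lower. Arg1 was at 1.44, 12.7 and 2.88 CPM with the combination (-2.48, SE 0.73, adjusted p = 0.026). In CM + Rux 8 were called higher and 5 lower than in DMEM, where 20.4% of all genes were called higher and 23.2% lower. In CM + Rux + IKK-16 it was 7 higher and 4 lower, where 16.1% of all genes were called higher and 17.2% lower. The largest rise was in Arg1 and the largest fall in Pparg in both. The 2 h samples had 7 higher and 2 lower than the 4 h samples, where 12.6% of all genes were called higher and 10.7% lower. The list ran from Clec10a (1.95, SE 0.32, adjusted p = 0.000367) to Arg1, which had 3 counts in all at 2 h against 808 at 4 h (adjusted p = 0.00542). The Arg1 call at 2 h was lost without replicate 2 of the 2 h group (adjusted p = 0.058). The Arg1 call against CM was lost without CM replicate 2 (-1.81, adjusted p = 0.126) or CM + Rux + IKK-16 replicates 1 (-2.01, adjusted p = 0.0905) or 3 (-2.16, adjusted p = 0.0949), with DESeq2 (adjusted p = 0.0583) and in a model of the groups compared (adjusted p = 0.0591). The Ppargc1b call against CM + Rux was also lost in such a model (adjusted p = 0.0534).

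The genes whose level over the 16 samples was most like that of each receptor gene were found by Pearson's r of log2(CPM + 1), as a description across samples that share treatments. For Il4ra these were Abtb2 (r = 0.989), Orai1 (0.988) and Sav1 (0.985). For Il2ra they were Alpk2 (0.983), Cnn3 (0.97) and Ptpn1 (0.96), and for Il13ra1 Gm27167 (0.946), 1600014C10Rik (0.933) and Bst1 (0.933). For Il2rg they were Hcar2 (0.988), Nfkbia (0.988) and Tnfaip3 (0.987), of which the last pair encode the inhibitors IκBα and A20. Il7r went with Tmem189 (0.969), Sel1l3 (0.957) and Adssl1 (0.952), all highest in CM + Rux + IKK-16. Il21r went with Cdkn2d (0.963), Rac2 (0.955) and Itgam (0.951). Il15 went with Mab21l3 (0.956), Rbm12 (0.953) and Dyrk2 (0.939), and Il15ra with Git2 (0.945), Hs6st1 (0.938) and Frmd6 (0.938), all highest at 2 h. Among the 8 genes themselves the closest were Il4ra and Il2rg (r = 0.931), and Il15 and Il15ra were at 0.846.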

How the data were processed

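The samples, groups and treatments are given above. Per the paper's methods and the submitters' processing notes, the authors trimmed reads (Trimmomatic 0.33), aligned them to GRCm38 (HISAT2 2.1.0) and counted fragments per gene by strand (featureCounts 1.6.2). The deposited values are whole-number counts per gene, not scaled. Symbols came from a GENCODE M21 table of the same build in place of Ensembl 100; 55141 of 55487 identifiers matched, and the 346 others held at most 0.0459% of a sample's counts. The 8 genes and all lists were chosen with earlier results of these data known. A gene was tested where its CPM exceeded 1 in 2 samples or more. RLE factors scaled the CPM, and 1 model of all 16 samples was fitted with edgeR 4.0.16 (quasi-likelihood test, R 4.3.3), with Benjamini-Hochberg adjustment over 12372 genes. Calls needed adjusted p under 0.05 and a log2 fold change beyond 0.5, the study's limits. The fit was tested on simulated counts without a replicate effect and recovered most of the larger changes put in, those of 2 on the log2 scale. DESeq2 1.42.0, TMM, scaling by total counts (chosen after seeing the data), other filters and thresholds, smaller models, a replicate block and leaving out each sample were alternatives. Samples with the same number deviated together: in 34 of 35 pairs r exceeded 0.1 (median 0.32, and -0.12 for different numbers). The exception was DMEM replicate 2 and CM + Rux 2 h replicate 2, which are not compared. Deviations from a group mean cancel within the group, so positive r for the same number brings negative r for different numbers. The pairs are thus not independent, and the -0.12 is no separate evidence. Comparisons with DMEM or the 2 h group alone have only 2 such pairs, too few for the block to count as pairing. All 8 genes and, of the lists, the called gene with the largest rise and fall in each comparison, the ligands, other chains and Jak1, Jak3, Stat5a, Stat5b and Stat6 were named. Intervals and the limit of 3 counts for a gene without counts cover counting error only.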

Additional observations from a re-analysis of the deposited data

Results flagged for a closer look

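Of the results given above, 1 differed between the groups by the test of the difference itself. Ruxolitinib lowered Socs1 in DMEM, from 0.887 and 0.941 CPM to 0.185, 0.29 and 0.291 CPM (log2 fold change -1.76, SE 0.24, adjusted p = 0.000976), and this effect differed from that in CM, where the difference was 1.5 on the log2 scale (SE 0.27, adjusted p = 0.0302 by edgeR). In CM the level was 18.3 ± 0.586 CPM alone and 15.2 ± 1.17 CPM with ruxolitinib (n = 3 each). The call of the difference was lost in 10 of the 11 fits that left out 1 library, all but that without CM + Rux replicate 2, with adjusted p between 0.0512 (without DMEM replicate 2) and 0.144 (without DMEM replicate 1). The call in DMEM was lost in a model of the groups compared (adjusted p = 0.151). DMEM held 53 counts of Socs1 in all and DMEM + Rux 26. No group holds enough samples for a test of outlying samples.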

How the results depend on the processing

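Groups of 2 or 3 samples limit what could be called, and Il2ra and Il15ra rest on few counts. Of 18 counts of called genes (9 comparisons, 2 directions), TMM, filterByExpr and no fold threshold moved 0 by more than 1.5 times. Without the fold threshold Il2rg was added, as lower with IKK-16 against CM + Rux (-0.26) and higher in CM + Rux + IKK-16 against DMEM (0.40). Scaling by total counts gave 1 lower in CM, in CM + Rux and in CM + Rux + IKK-16 against DMEM, 3 higher in CM + Rux against DMEM, 1 lower with IKK-16 against CM + Rux and 2 lower at 2 h. An adjusted p under 0.1 gave 1 lower in CM and in CM + Rux + IKK-16 against DMEM and 2 lower at 2 h. Without the filter on low counts it was 1 lower for the difference between the ruxolitinib effects and 3 lower at 2 h, DESeq2 gave 2 lower at 2 h, and a model of the groups compared 1 lower in CM + Rux + IKK-16 against DMEM (Il2ra then failed the filter on low counts there and in DMEM + Rux against DMEM, so it has no value). The cause was not tested.

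With the replicate block the difference between the ruxolitinib effects had 1 lower and 2 h 3 lower (Il2ra -1.01 and Il21r -1.25 added). Against DMEM, where only 2 numbers are shared, the block lost Il13ra1 (0.48) and Jak3 (0.45) in CM + Rux and called Il21r with IKK-16 (1.06). Beyond these and the values given in the report, the replicate block changed no other call of the genes named. Over all genes it moved the calls for ruxolitinib in CM from 149 higher and 263 lower to 305 and 440, and for the difference between the ruxolitinib effects from 29 and 22 to 247 and 197 (DESeq2 147 and 87).

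Leaving out 1 replicate each, the genes called ranged from 5 to 7 higher and 0 to 1 lower in CM against DMEM, 0 to 3 lower in CM + Rux against CM, 0 to 1 higher and 1 to 2 lower with IKK-16 against CM + Rux, 1 to 2 lower at 2 h, 4 to 6 higher in CM + Rux against DMEM, 3 to 4 higher in CM + Rux + IKK-16 against DMEM, and 0 to 1 higher and 3 to 5 lower in CM + Rux + IKK-16 against CM. Log2 fold changes that turned sign were of genes not called. For Il4ra in DMEM + Rux against DMEM they were 0.0064 (TMM), 0.056 (replicate block) and 0.012 (total counts), and at 2 h -0.023 (replicate block). With total counts Il2rg at 2 h was at -0.050 and Il15ra with IKK-16 against CM + Rux at 0.0095. For Il15ra in CM + Rux + IKK-16 against CM they were 0.0017 (TMM), 0.11 (total counts) and 0.0013 (groups compared). Leaving out 1 replicate, the ranges were -0.0013 to 0.086 (Il2rg), -0.18 to 0.16 (Il15), -0.17 to 0.21 (Il15ra) and -0.29 to 0.10 (Il7r) in CM + Rux against CM, -0.87 to 0.31 (Il21r) with IKK-16 against CM + Rux, -0.18 to 0.20 (Il4ra), -0.25 to 0.0082 (Il2rg) and -0.043 to 0.60 (Il7r) in DMEM + Rux against DMEM, -0.20 to 0.36 (Il4ra), -0.017 to 0.069 (Il2rg) and -0.38 to 0.011 (Il7r) at 2 h, -0.0096 to 0.37 (Il13ra1) in CM + Rux + IKK-16 against DMEM, and -0.25 to 0.14 (Il15ra) in CM + Rux + IKK-16 against CM. A lone sample left in a group was taken to vary like the other groups.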
